A study of Homo sapiens with 9 samples.

Results

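Kinesins and cytoplasmic dyneins are the motor proteins that walk along microtubules. Their genes were taken as all protein-coding genes of the deposited count table whose symbols begin with KIF and a digit, KIFC, DYNC1, DYNC2 or DYNL. The rule found 57 of 46427 genes in the table (19672 protein-coding), 42 kinesin and 15 dynein genes, and used no measured value. A further 17 matching entries were left out as pseudogenes (12) or long noncoding RNAs (5). The dynein light chain genes DYNLT2, DYNLT2B, DYNLT4 and DYNLT5 stand in the table under older names and so fall outside the rule. The 57 genes were divided by the known role of their products into 14 mitotic kinesins, 17 transport kinesins, 11 ciliary or other kinesins, 5 dynein-1 chains, 4 dynein-2 chains and 6 dynein light chains.

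The study asked how autophagy acts in neuronal differentiation. All 9 libraries came from H9, a long-established line of human embryonic stem cells (hESC), with 3 libraries labelled as biological replicates in each of 3 groups: untreated hESC, untreated neural progenitor cells (NPC) at day 11 ("control NPC"), and NPC at day 11 treated with bafilomycin A1 ("BafA1 NPC"). Per the labels, both NPC groups were differentiated toward midbrain dopamine neurons on Matrigel with 200 nM LDN193189 and 10 µM SB431542 (inhibitors of BMP and TGF-beta receptors), 2 µM purmorphamine (a Hedgehog agonist) and 3 µM CHIR99021 (a GSK3 inhibitor that activates WNT signalling). Bafilomycin A1 blocks the proton pump of lysosomes and so the last step of autophagy. It was used at 10 nM for 6 h, and which of the several windows of days in the labels applies to these libraries, the sources used here do not give. All cells are of 1 line, and the labels do not say whether groups were grown or sequenced together, so a batch and a group cannot be told apart.

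Most kinesins move toward the plus ends of microtubules, while dynein moves toward the minus ends. Mitotic kinesins build the spindle, move chromosomes and complete cytokinesis, and their transcripts accumulate before division. Transport kinesins and dynein-1 carry vesicles, mitochondria and RNA, which in neurons means along axons and dendrites. Kinesin-2 and dynein-2 drive intraflagellar transport, the traffic up and down the primary cilium, which neural progenitors need for Hedgehog signalling.

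Library totals were 43124679 to 69703791 counts. Values are CPM (counts scaled to a common library size) scaled by TMM, a factor that sets most genes equal between libraries, and 1 count was worth 0.0143 to 0.0232 CPM. Replicates of each group differed by more than counting noise, with chi-square values over their degrees of freedom of 11.4 to 75.9, so none was the same library deposited again. The labels do not say that replicates came from separate cultures, so p-values measure only the spread between these libraries, which may be technical. All 6 pluripotency markers were lower and all 8 neural progenitor markers higher in control NPC than in hESC. The pluripotency factor POU5F1 had no count in control NPC. The neural gene NR2F1 had none in hESC and was at 141 to 168 CPM in control NPC. PAX6 too had no count in hESC but reached only 0.19 to 0.49 CPM in control NPC. LIN28A, a pluripotency marker, stayed at 513 to 580 CPM in control NPC, and FOXA2, a progenitor marker, was already at 57.9 to 64.7 CPM in hESC. Neuronal markers summed over 10 genes to 270 to 293 CPM in hESC, 657 to 702 in control NPC, then 689 to 741 under BafA1, and mesenchymal markers to 81.2 to 86.1, 1066 to 1796 and 2014 to 2238 CPM over 6 genes. The mesenchymal genes were all higher in control NPC than in hESC, where LUM had no count, and 2 rose and 2 fell in BafA1 NPC. The part of other cell types in the results was not tested.

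Of the 57 motor genes 56 passed the filter on low counts; KIF2B had no count in any library. Compared by level per transcript length, as FPKM in the deposited tables, the light chain genes DYNLL1 and DYNLRB1 ranked first and second in all 3 groups. DYNLL1 stood at 296 ± 7.17 FPKM in hESC, 337 ± 22.6 in control NPC and 184 ± 23.7 under BafA1 (SD, n = 3), and DYNLRB1 at 89.98 ± 0.297, 91.7 ± 1.67 and 111 ± 12.4. Among kinesins in control NPC the order was KIFC1 (45.1 ± 3.58 FPKM), KIF22 (43.9 ± 3.71), KIF20A (39.7 ± 0.761), KIF2C (39.4 ± 0.555) and KIF5B (31.6 ± 1.66). The first 4 are mitotic. KIFC1 and KIF22 lay within their SD of each other, as did KIF20A and KIF2C, while KIF5B, the general cargo kinesin, lay below all 4 by more than the SD. In hESC the highest transport kinesin by FPKM was KIF1A (41.7 ± 1.72), which ranked sixth among all motor genes there and 20th in control NPC. The FPKM tables of the groups were deposited separately, so these levels were set side by side without a test. At the other end, beside KIF2B, the means of KIF12, KIF25, KIF19, KIF4B, DYNLRB2, KIF6, DYNC1I1, KIF26B, KIF17 and KIF13B were under 2 FPKM in every group.

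In the comparison of BafA1 NPC with control NPC, 6 motor genes were higher, 20 were lower and 30 were not called by edgeR's quasi-likelihood test at a Benjamini-Hochberg adjusted p under 0.05. Of all 20685 genes tested, 20.8% were higher and 20.7% lower (41.5% in either direction). The libraries of both groups did not overlap for 6 motor genes upward and 22 downward, against 24.1% and 25.1% of all genes (49.2% in either direction). The median log2 change was -0.17 over the motor genes and 0 over all genes. In the comparison of control NPC with hESC, 29 motor genes were higher, 13 lower and 14 not called. The median was 0.24 against 0.03 over all genes, and differentiation and any batch cannot be told apart there. Of all genes tested, 33% were higher and 31.6% lower in that comparison (64.5% in either direction). Groups did not overlap for 30 motor genes upward and 12 downward, against 37% and 35.8% of all genes (72.8% in either direction). Both comparisons use the same control libraries, so their values are not independent. Of the 26 motor genes called in BafA1 NPC 15 were called under each of the 14 alternatives tried, as were 35 of the 42 called in control NPC. How many of all genes kept their calls in this way was not computed.

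**Figure D1:**
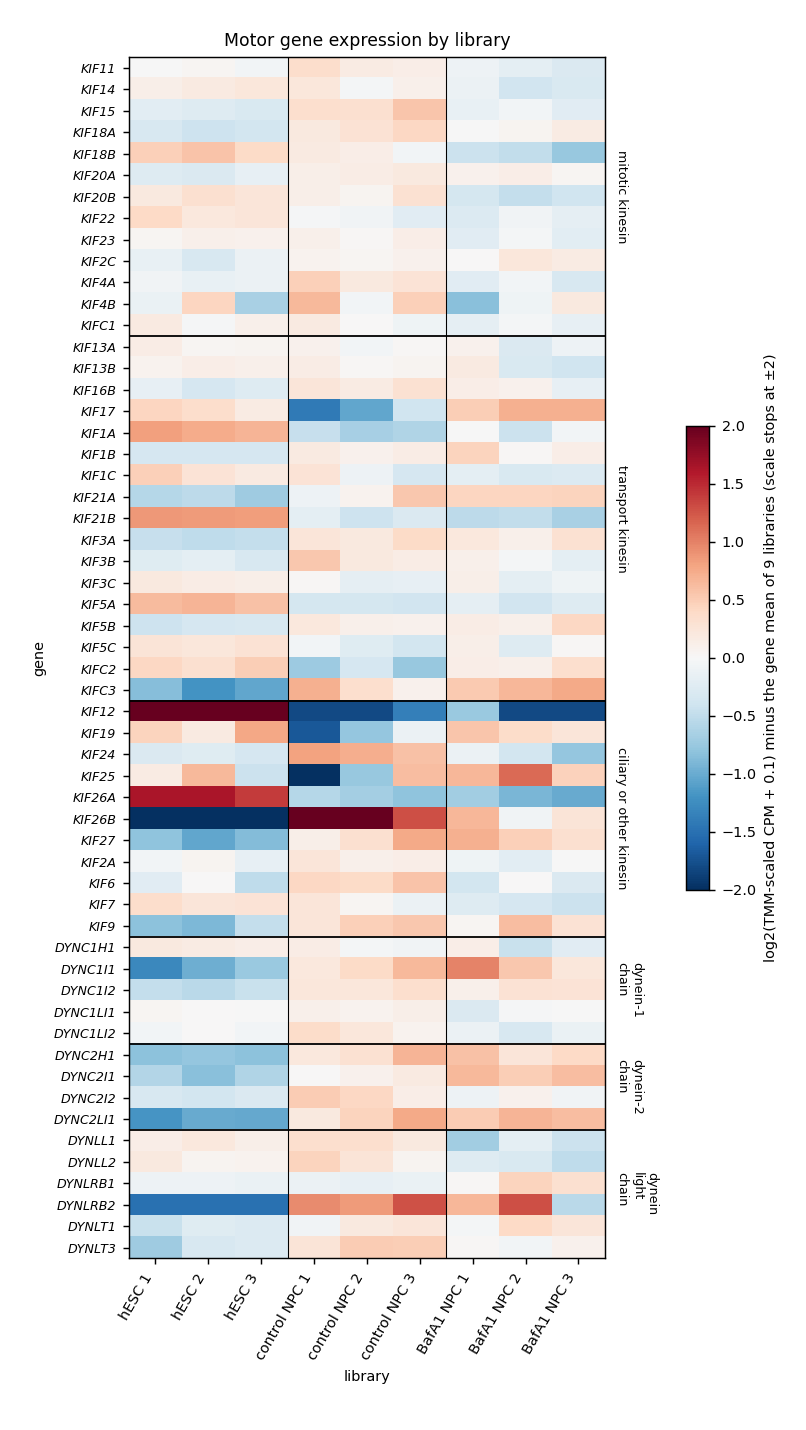
Expression of the 56 motor genes with counts in each of the 9 libraries, as log2(TMM-scaled CPM + 0.1) minus the gene's mean over the libraries, with colours that stop at 2 in either direction. Genes are rows grouped by role and libraries are columns; most mitotic kinesins are bluer in BafA1 NPC than in control NPC, and dynein-2 chains are redder in both NPC groups than in hESC.

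**Figure D2:**
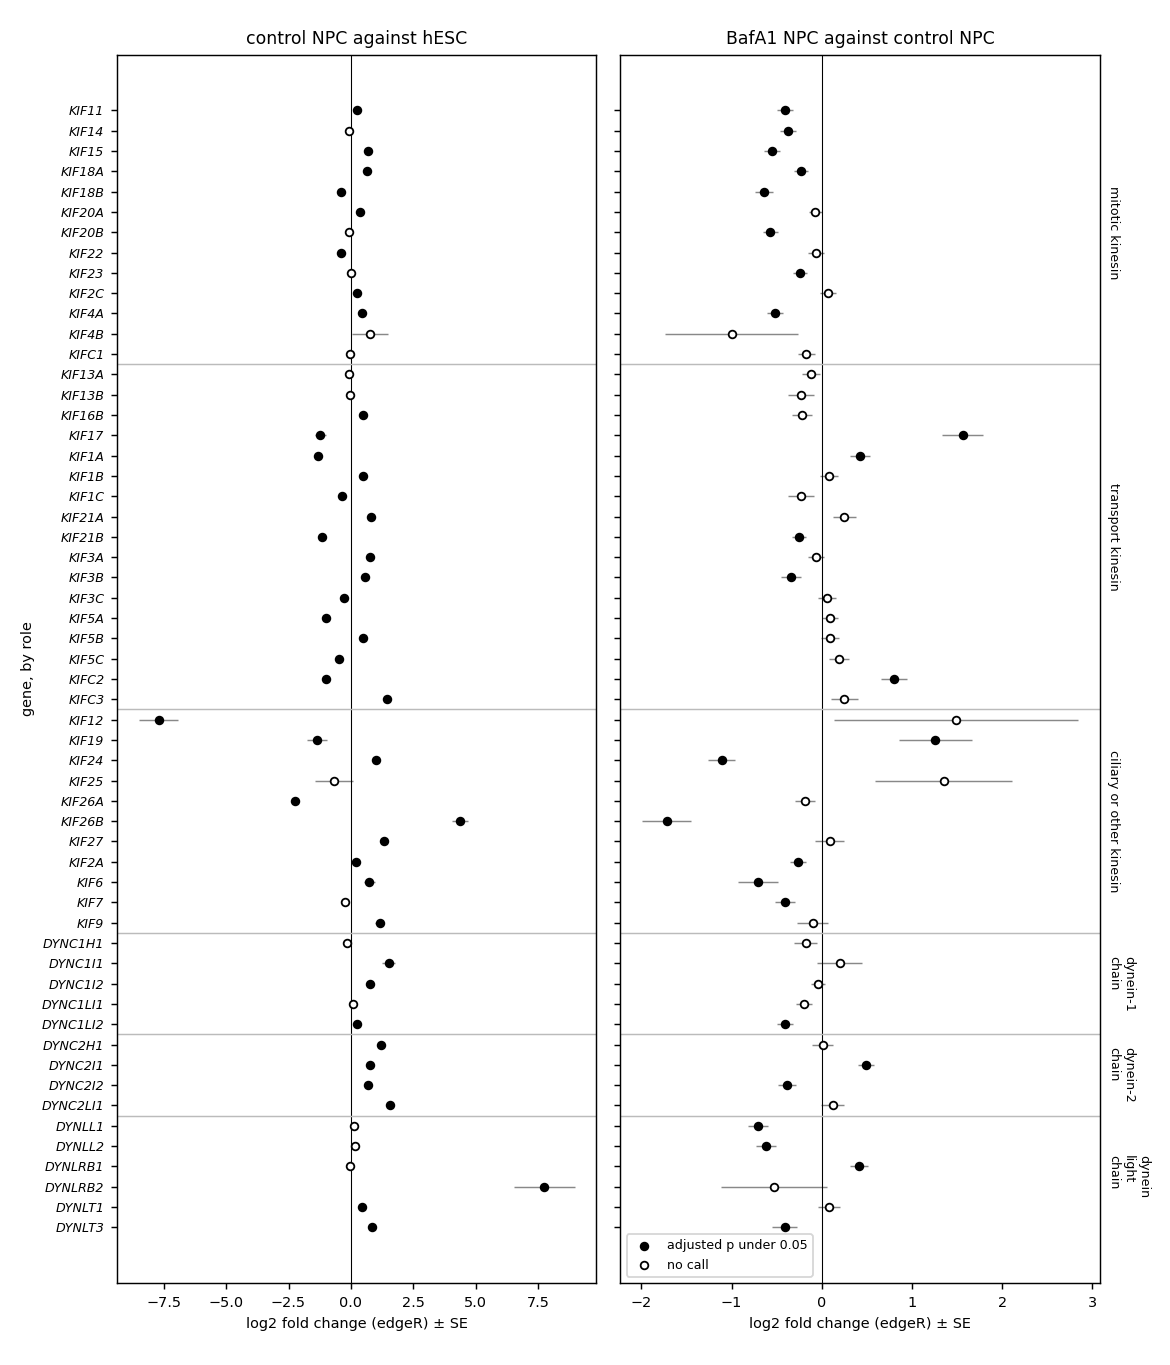
Log2 fold change with SE (edgeR, 3 libraries a group) of each motor gene, for control NPC against hESC on the left and BafA1 NPC against control NPC on the right, on axes of different range. Filled points passed an adjusted p under 0.05; in BafA1 NPC 8 of 13 mitotic kinesins lie left of 0 as filled points and none to the right. The fitted values of DYNLRB2 and KIF12 on the left rest on groups with 0 and 2 counts and are no bounds.

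Of the 13 mitotic kinesins tested, 8 fell in BafA1 NPC, none rose and 5 were not called, with a median log2 change of -0.37. In bulk RNA fewer cells of a type and less RNA per cell cannot be told apart. KIF18B, which trims the astral microtubules of the spindle, was at 66.01, 70.2 and 62.1 CPM in hESC, 53.7, 51.7 and 45.5 in control NPC and 35.05, 33.6 and 27.98 under BafA1. Every BafA1 library lay below every control library, and every control library below every hESC library. The log2 change was -0.64 ± 0.10, adjusted p = 0.000511 in BafA1 NPC and -0.39 ± 0.10, adjusted p = 0.00474 in control NPC against hESC (SE and adjusted p by edgeR, here and below). KIF20B, a motor of cytokinesis, was at 86.5, 94.4 and 89.9 CPM in hESC, 82.2, 79.2 and 93.7 in control NPC and 59.3, 54.7 and 57.6 under BafA1. Control NPC and hESC overlapped, and BafA1 NPC lay below both (-0.57 ± 0.08, adjusted p = 0.000313 against control NPC). KIF15, which helps to keep the spindle bipolar, was at 51.6, 49.98 and 48.3 CPM in hESC, 75.4, 75.2 and 88.4 in control NPC and 54.01, 57.6 and 51.4 under BafA1. Control NPC stood above hESC (0.67 ± 0.09, adjusted p = 2.68e-05), and BafA1 NPC fell back (-0.55 ± 0.09, adjusted p = 0.000449) to a range that overlapped that of hESC.

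KIF4A, a chromosome-bound kinesin that sets the length of the central spindle, was at 80.5, 75.8 and 77.4 CPM in hESC, 117, 96.9 and 102 in control NPC and 72.5, 80.9 and 67.8 under BafA1, with control NPC above both other groups (-0.52 ± 0.09, adjusted p = 0.00118 in BafA1 NPC). KIF11, the motor that pushes the spindle poles apart, was at 124, 128 and 120.0 CPM in hESC, 159, 139 and 136 in control NPC and 117, 109 and 102 under BafA1. The 3 groups did not overlap, with control NPC highest and BafA1 NPC lowest (-0.41 ± 0.09, adjusted p = 0.00297). KIF14, which acts in the last step of cytokinesis, was at 50.5, 52.7 and 54.5 CPM in hESC, 54.1, 45.4 and 49.7 in control NPC and 42.8, 35.4 and 37.5 under BafA1 and fell in BafA1 NPC (-0.37 ± 0.09, adjusted p = 0.00921). KIF23, a subunit of the centralspindlin complex of the cleavage furrow, was at 89.4, 92.8 and 91.5 CPM in hESC, 92.6, 87.7 and 94.97 in control NPC and 74.2, 84.7 and 74.7 under BafA1. KIF18A, which damps the movements of chromosomes at the metaphase plate, was at 32.96, 31.2 and 32.2 CPM in hESC, 47.1, 50.3 and 55.2 in control NPC and 41.1, 42.99 and 46.3 under BafA1. Both fell in BafA1 NPC without overlap, with log2 changes of -0.24 and -0.23 and adjusted p-values of 0.0307 and 0.0491 that lay near the threshold.

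The smaller falls depended on the processing. After removal of trends with GC content and transcript length, KIF11 (-0.16, adjusted p = 0.215), KIF14 (-0.12, 0.291), KIF23 (-0.06, 0.551) and KIF18A (-0.06, 0.548) were no longer called, KIFC1 was (-0.23, 0.0223), and 5 mitotic kinesins were lower in place of 8. The call of KIF18A was also lost without control replicate 2 or 3 or BafA1 replicate 1 or 2 (adjusted p = 0.102 to 0.152), and that of KIF23 without any 1 control replicate or BafA1 replicate 1 or 3 (0.0515 to 0.0952). With all libraries KIF18A was not called under RLE size factors (0.0581), in DESeq2 (0.0517) or without the filter (0.0786). Fitting only control and BafA1 NPC removed the calls of KIF18A (0.0992) and KIF23 (0.0835). The 4 mitotic kinesins called under all 14 alternatives were KIF15, KIF18B, KIF20B and KIF4A.

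The other mitotic kinesins were not called in BafA1 NPC. KIF20A, which brings the chromosomal passenger complex to the central spindle, was at 103, 101 and 110.1 CPM in hESC, 133, 136 and 141 in control NPC and 130.1, 134 and 126 under BafA1. KIF2C, which removes wrongly attached microtubules from centromeres, was at 109.7, 96.4 and 111 CPM in hESC, 127, 124 and 129 in control NPC and 121, 142 and 135 under BafA1. KIFC1, a minus-end motor that focuses spindle poles, was at 135, 117 and 128 CPM in hESC, 136, 121 and 113 in control NPC and 106, 117 and 106 under BafA1. In all 3 genes the BafA1 and control libraries overlapped, and the 95% intervals of the log2 change were -0.23 to 0.09, -0.12 to 0.26 and -0.37 to 0.03. KIFC1 was called lower under scaling by library size alone (-0.30, adjusted p = 0.0227). KIF22, which pushes chromosome arms toward the equator, changed by -0.06 ± 0.09, adjusted p = 0.608. The retrocopy KIF4B held 14 to 29 counts per group and is uncertain, since it shares most of its sequence with KIF4A.

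Against hESC, 6 of the 13 mitotic kinesins were higher in control NPC and 2 were lower (median 0.23). The rises were in KIF15, KIF18A (0.66 ± 0.08, adjusted p = 2.56e-05), KIF4A (0.44 ± 0.09, adjusted p = 0.00144), KIF20A (0.38 ± 0.07, adjusted p = 0.000636), KIF2C (0.26 ± 0.09, adjusted p = 0.0193) and KIF11 (0.23 ± 0.09, adjusted p = 0.037), and the falls in KIF18B and KIF22 (-0.40 ± 0.09, adjusted p = 0.002). With GC and length trends removed 5 were lower, among them KIF14 (-0.33, adjusted p = 0.00443) and KIF20B (-0.37, 0.00135). In that setting KIF11 stood at -0.03 (adjusted p = 0.795) and KIF23 turned from 0.01 to -0.21 (adjusted p = 0.0418). The rise of KIF2C was lost without hESC replicate 2 (0.20, adjusted p = 0.105). That of KIF11 was lost without any 1 hESC replicate or control replicate 1 or 2 (0.16 to 0.25, adjusted p = 0.0564 to 0.139). With all libraries the KIF11 call was also lost under RLE size factors (0.18, adjusted p = 0.0914), in DESeq2 (0.18, 0.0768) and without the filter (0.23, 0.0543).

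Other genes of the cell cycle also changed in BafA1 NPC, not all in the same direction. Of 24 genes of G2 and mitosis that are no motors of the rule 9 fell, 2 rose and 13 were not called (median -0.21). Of 15 S phase genes 14 fell and 1 rose (median -0.71). CDC20 and PLK1, of the G2 and mitosis list, were higher in every BafA1 library than in every control library. Their means were 157 and 127 CPM in BafA1 NPC, against 128 and 103 in control NPC. CENPF, a kinetochore protein, changed by -0.77 ± 0.10, adjusted p = 0.000114, and ECT2, which starts the cleavage furrow, by -0.53 ± 0.08, adjusted p = 0.000412. The replication clamp gene PCNA changed by -1.35 ± 0.11, adjusted p = 1.22e-05 and the S phase cyclin gene CCNE2 by -2.33 ± 0.23, adjusted p = 3.23e-05. Summed over its list, expression was 1037 to 1074 CPM for mitotic kinesins in hESC, 1111 to 1185 in control NPC, then 930 to 997 under BafA1. The G2 and mitosis list summed to 4347 to 4420, 4504 to 4756 and 3687 to 3917 CPM, and the S phase list to 2934 to 3192, 1932 to 2459 and 1225 to 1449. Every gene of both lists had counts in all 3 groups, and the share of dividing cells was not tested.

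**Figure D3:**
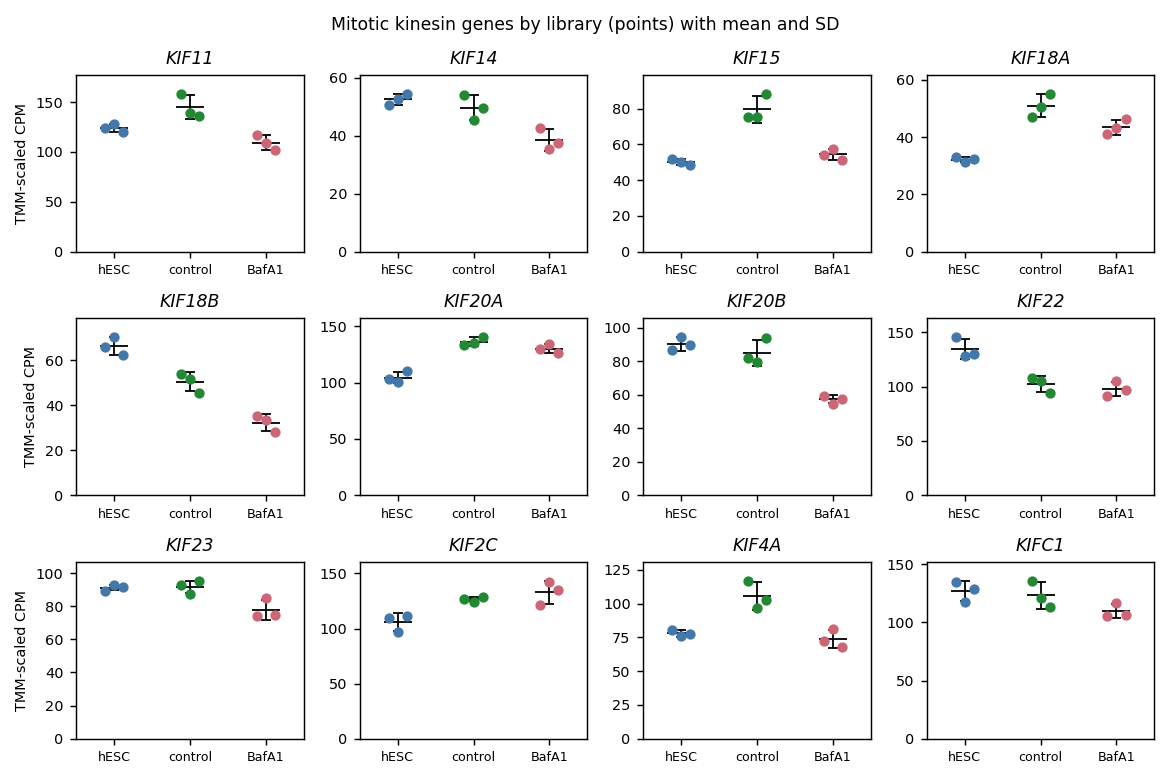
TMM-scaled CPM of 12 mitotic kinesin genes in hESC, control NPC and BafA1 NPC, with points for the 3 libraries of a group and bars for the mean and SD, on axes from 0. For KIF15, KIF18B, KIF20B and KIF4A every BafA1 library lies below every control library, and for KIF20A, KIF2C and KIFC1 the 2 groups overlap.

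The mitotic kinesins also share promoter sequence, which the rule did not use. The cell cycle homology region (CHR), known from promoters of mitotic genes as a site of the MuvB complexes, has the core TTTGAA, and CCAAT boxes, which bind NF-Y, often stand upstream of it. RefSeq promoters of GRCh38.p14, 250 bases before to 50 after the start of transcription, were found for 48 of the 57 motor genes and searched on both strands. TTTGAA was present in 10 of 14 mitotic kinesin promoters (71.4%), in 3 of 34 promoters of the other motor genes (8.8%) and in 15.2% of all 35116 RefSeq promoters. CCAAT was present in 11 of 14 (78.6%), 13 of 34 (38.2%) and 34.6%. The 2 motifs can share at most 1 end base. A related core, TTTAAA, was in 4 of 14 mitotic promoters (28.6%), those of KIF14, KIF20A, KIF23 and KIF2C, and in 12.2% of all promoters. A match is a description of the letters, not a bound site.

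The 100 bases before the start are shown for 5 mitotic kinesins that fell in BafA1 NPC and hold the core there, and for 2 that were not called and lack it, 5′ to 3′ on the strand of the gene. Capitals mark TTTGAA and CCAAT, or TTCAAA and ATTGG where the match is on the other strand. The related core TTTAAA, present in the KIF20A stretch, is left in lower case. The stretches were picked by call and motif together, so their pairing of the core with a fall is no result. In KIF14, KIF18B and KIF20B, which fell, and in KIFC1 and KIF4B, which were not called, the core follows the start. Their stretches are not shown.
KIF4A, chrX:70290004-70290103, plus strand: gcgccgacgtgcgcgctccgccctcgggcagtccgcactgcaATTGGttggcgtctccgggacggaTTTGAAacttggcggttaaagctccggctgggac
KIF11, chr10:92593030-92593129, plus strand: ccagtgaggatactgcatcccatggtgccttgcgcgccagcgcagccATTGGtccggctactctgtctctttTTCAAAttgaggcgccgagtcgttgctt
KIF15, chr3:44761694-44761793, plus strand: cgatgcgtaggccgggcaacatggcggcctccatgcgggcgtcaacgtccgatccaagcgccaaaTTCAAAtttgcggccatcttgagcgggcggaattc
KIF18A, chr11:28108157-28108256, minus strand: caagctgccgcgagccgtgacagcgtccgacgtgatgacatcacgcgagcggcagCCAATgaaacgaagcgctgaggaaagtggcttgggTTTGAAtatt
KIF23, chr15:69414249-69414348, plus strand: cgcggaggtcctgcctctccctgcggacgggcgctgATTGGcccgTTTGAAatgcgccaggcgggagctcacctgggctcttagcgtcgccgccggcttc
KIF20A, chr5:138179012-138179111, plus strand: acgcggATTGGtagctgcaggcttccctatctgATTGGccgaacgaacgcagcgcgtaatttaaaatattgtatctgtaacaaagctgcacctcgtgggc
KIF22, chr16:29790651-29790750, plus strand: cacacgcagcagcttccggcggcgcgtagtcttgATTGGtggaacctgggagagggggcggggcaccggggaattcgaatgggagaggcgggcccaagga
In KIF4A, KIF11, KIF18A and KIF23 a CCAAT box stands upstream of the core, and in KIF15 the core stands alone.

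All 8 mitotic kinesins that fell were among the 10 tested genes of the class with the TTTGAA core, the other two being KIFC1 and KIF4B. None of the 3 tested genes without it (KIF20A, KIF22 and KIF2C) fell. Of these, KIF20A and KIF2C hold the related core TTTAAA, which begins 41 and 3 bases before the start. KIF14 and KIF23, which fell, hold both forms. After removal of GC and length trends the counts were 5 of 10 and 0 of 3, and with limma on log2(FPKM + 1) KIF20A was called lower (-0.21, adjusted p = 0.0231). This comparison was made after the values were seen and has no test. Among the 24 genes of G2 and mitosis, 7 of 15 with the core fell and 2 rose. Of the 5 without it 2 fell and 0 rose, and the rest had no promoter in the table. Over all tested genes with a promoter 24.2% of those with the core and 22.3% of those without it fell. None of the S phase genes with a promoter held the core, and 11 of these 12 fell.

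**Figure D4:**
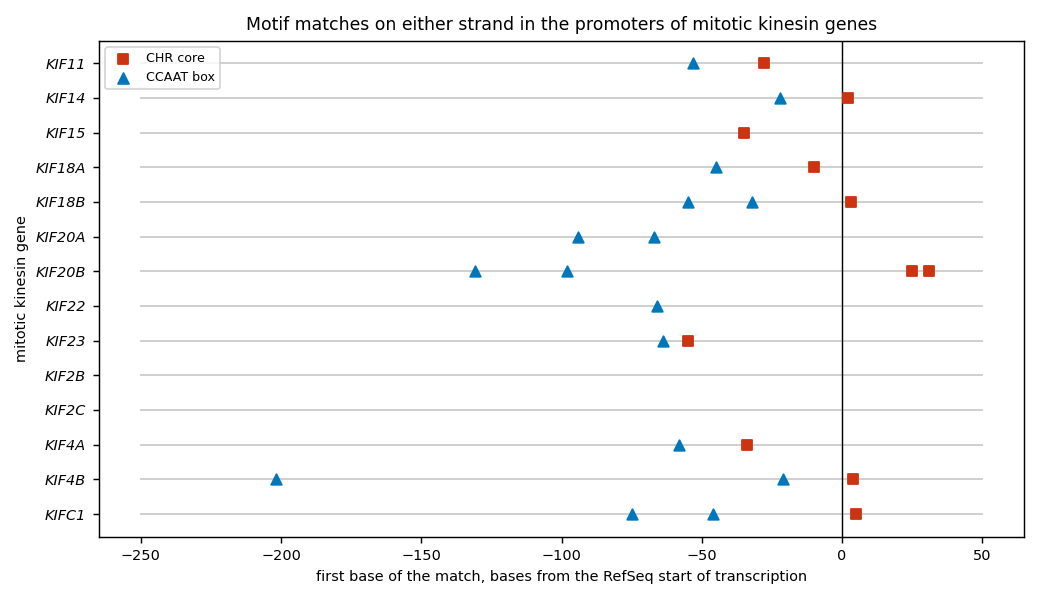
Positions of the CHR core (squares) and the CCAAT box (triangles) on either strand in the promoters of the 14 mitotic kinesin genes, in bases from the RefSeq start of transcription at 0; grey lines span the 250 bases before to 50 after it. The core TTTGAA appears within 55 bases of the start in the 10 genes that hold it, and KIF20A, KIF22, KIF2B and KIF2C have none. The related core TTTAAA is not drawn.

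Of 17 transport kinesins 3 rose and 2 fell in BafA1 NPC (median 0.08), while 7 rose and 8 fell from hESC to control NPC (median -0.06). KIF17, a kinesin-2 of dendrites and cilia, was at 7.74, 7.29 and 6.41 CPM in hESC, 2.08, 2.72 and 4.33 in control NPC and 8.12, 9.46 and 9.42 under BafA1. Control NPC lay below both other groups, and BafA1 NPC above both, with a log2 change of 1.56 ± 0.23, adjusted p = 0.000277 in BafA1 NPC and -1.23 ± 0.23, adjusted p = 0.00046 in control NPC. KIFC2, a motor found mostly in neurons, was at 15.1, 14.2 and 15.9 CPM in hESC, 6.80, 8.94 and 6.60 in control NPC and 12.4, 12.2 and 14.2 under BafA1 and rose in BafA1 NPC (0.80 ± 0.14, adjusted p = 0.000838) after it fell in control NPC (-1.02 ± 0.14, adjusted p = 4.09e-05). KIF1A, which carries precursors of synaptic vesicles, was at 450.5, 426 and 408 CPM in hESC, 185, 161 and 169 in control NPC and 254, 189 and 248 under BafA1. All 6 NPC libraries lay below those of hESC (-1.32 ± 0.12, adjusted p = 9.92e-07), and all 3 BafA1 libraries above the control libraries (0.42 ± 0.11, adjusted p = 0.0116). The rise of KIF1A in BafA1 NPC was lost without control replicate 2 (0.38, adjusted p = 0.0582), under scaling by library size alone (0.30, 0.0651) and with limma on log2(FPKM + 1) (0.25, 0.133). KIF17 and KIFC2 kept their calls under all 14 alternatives. Of 10 neuronal markers, all with counts in every group, 3 rose and none fell in BafA1 NPC, and 8 rose and 1 fell in control NPC; the part of neurons in the transport kinesin values was not tested.

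The falls in BafA1 NPC were in KIF3B (-0.34 ± 0.11, adjusted p = 0.0295), a subunit of the kinesin-2 of intraflagellar transport, and KIF21B (-0.25 ± 0.08, adjusted p = 0.0278), which regulates microtubule growth in neurons. KIF21B was at 77.1, 76.7 and 75.4 CPM in hESC, 37.2, 31.7 and 34.7 in control NPC and 29.6, 30.05 and 27.1 under BafA1, and its larger fall was between hESC and control NPC (-1.15 ± 0.08, adjusted p = 1.81e-07). In BafA1 NPC the fall of KIF3B was lost without control replicate 1 or BafA1 replicate 2 or 3 (adjusted p = 0.0679 to 0.125). With all libraries the KIF3B fall was also lost with GC and length trends removed (-0.2, adjusted p = 0.118). That of KIF21B in BafA1 NPC against control NPC was lost without control replicate 1 or 3 or BafA1 replicate 3 (adjusted p = 0.0505 to 0.101). Neither fall was called when only those 2 groups were fitted.

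The 3 heavy chain genes of kinesin-1, the main motor of axonal transport, moved apart from hESC to control NPC and were not called in BafA1 NPC. KIF5A, the neuronal form, was at 29.8, 30.6 and 28.8 CPM in hESC, 15, 14.9 and 14.6 in control NPC and 16.8, 14.6 and 15.9 under BafA1 and fell (-1 ± 0.09, adjusted p = 9.69e-07). KIF5B, the form found in most cells, was at 140.4, 148 and 150.2 CPM in hESC, 217, 201 and 199 in control NPC and 206, 202 and 250.2 under BafA1 and rose (0.49 ± 0.10, adjusted p = 0.000674). KIF5C, also enriched in neurons, was at 146, 144 and 149.6 CPM in hESC, 118, 103 and 95.2 in control NPC and 134, 103 and 125 under BafA1 and fell (-0.48 ± 0.11, adjusted p = 0.00199). In each gene control NPC did not overlap with hESC. BafA1 NPC overlapped with control NPC, with 95% intervals of the log2 change of -0.10 to 0.28, -0.12 to 0.30 and -0.04 to 0.43. With GC and length trends removed KIF5B (0.32, adjusted p = 0.0155) and KIF5C (0.33, 0.0147) were higher in BafA1 NPC, as were KIF1B (0.23, 0.0172) and KIF21A (0.49, 0.00762), and the transport kinesins that rose numbered 7. KIF5C was also called without BafA1 replicate 2 (0.29, 0.0375).

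KIF21A, a kinesin-4 that restrains microtubule growth at the cell cortex, was at 58.2, 60.4 and 52.97 CPM in hESC, 80.7, 90.7 and 126 in control NPC and 116, 117 and 119 under BafA1. It was higher in control NPC than in hESC (0.79 ± 0.14, adjusted p = 0.000278), and in BafA1 NPC it was called only without control replicate 3, the highest control library (0.45, adjusted p = 0.00256), and with GC and length trends removed. KIF3A, the partner of KIF3B, was at 22.4, 21.6 and 22.1 CPM in hESC, 36.5, 35.4 and 40.2 in control NPC and 35.7, 33.3 and 38.3 under BafA1 and rose in control NPC (0.76 ± 0.09, adjusted p = 8.75e-06) with no call in BafA1 NPC (-0.06 ± 0.09, adjusted p = 0.588). KIF3B rose in control NPC too (0.56 ± 0.11, adjusted p = 0.000925), while KIF3C, a further kinesin-2 gene, fell (-0.27 ± 0.09, adjusted p = 0.027). Other rises in control NPC were in KIFC3 (1.43 ± 0.16, adjusted p = 7.82e-06), a minus-end motor of cell junctions, KIF16B (0.50 ± 0.11, adjusted p = 0.00175), which moves early endosomes, and KIF1B (0.47 ± 0.10, adjusted p = 0.00177), a carrier of mitochondria and vesicles. KIF1C, which moves secretory vesicles, fell (-0.35 ± 0.14, adjusted p = 0.0398).

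Some of these smaller changes were called or not depending on the libraries and the processing used. The fall of KIF3C in control NPC was lost without hESC replicate 1 or 2 or control replicate 2 or 3 (-0.27 to -0.23, adjusted p = 0.0604 to 0.106), and that of KIF1C without the same 4 (-0.37 to -0.21, 0.0676 to 0.158). With all libraries, scaling by library size alone also removed the calls of KIF3C (-0.16, 0.212) and KIF1C (-0.24, 0.143). So did removal of GC and length trends (-0.17, 0.0547 and -0.23, 0.107), and for KIF3C limma on log2(FPKM + 1) (-0.18, 0.147). In BafA1 NPC, KIF13B was called lower without BafA1 replicate 1 (-0.42, adjusted p = 0.00471) and KIFC3 higher without control replicate 1 (0.43, 0.0349). KIF1C was called lower there without control replicate 3 (-0.36, 0.0371) and with GC and length trends removed (-0.35, 0.0325). KIF13A and KIF13B, which carry cargo to the plasma membrane, were called in neither comparison; with GC and length trends removed KIF13A was called lower in control NPC (-0.19, adjusted p = 0.048).

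**Figure D5:**
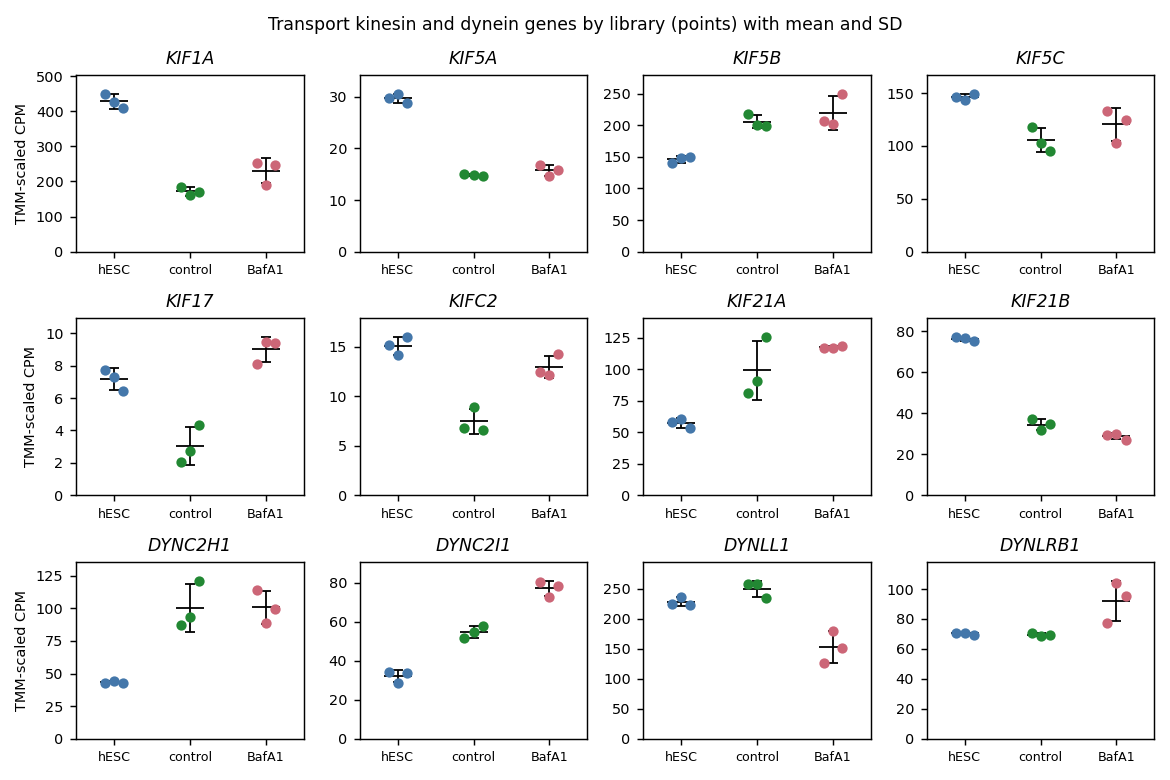
TMM-scaled CPM of 8 transport kinesin genes, 2 dynein-2 genes and 2 dynein light chain genes in hESC, control NPC and BafA1 NPC, with points for the 3 libraries of a group and bars for the mean and SD, on axes from 0. KIF17 and KIFC2 are lowest in control NPC, KIF1A, KIF5A and KIF21B are highest in hESC, and DYNLL1 is lowest in BafA1 NPC.

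Of the 11 ciliary or other kinesins 1 rose and 5 fell in BafA1 NPC (median -0.19), and 6 rose and 3 fell in control NPC against hESC (median 0.21). KIF26B, a kinesin without motor activity that acts in WNT5A-ROR signalling, was at 1.37, 1.07 and 1.14 CPM in hESC, 34.4, 24.9 and 14.6 in control NPC and 9.50, 5.68 and 7.17 under BafA1. It was low in all 3 hESC libraries, varied most among control libraries, and lay in between in BafA1 NPC (4.36 ± 0.32, adjusted p = 1.87e-07 in control NPC; -1.72 ± 0.27, adjusted p = 0.000478 in BafA1 NPC). Its relative KIF26A was at 86.2, 86.2 and 72.7 CPM in hESC, 18.7, 17.3 and 15.7 in control NPC and 16.99, 14.6 and 13.7 under BafA1 and fell in control NPC (-2.24 ± 0.11, adjusted p = 7.08e-09) with overlapping NPC groups. In BafA1 NPC it was not called (-0.19 ± 0.11, adjusted p = 0.189) except with GC and length trends removed (-0.42, adjusted p = 0.00178). KIF24, which shortens microtubules and restrains the growth of cilia, was at 14.3, 14.8 and 13.9 CPM in hESC, 30.8, 28.98 and 26.3 in control NPC and 16.2, 13.5 and 10.2 under BafA1. Control NPC stood above both other groups, so that its level rose from hESC (1 ± 0.14, adjusted p = 7.01e-05) and fell in BafA1 NPC (-1.11 ± 0.15, adjusted p = 0.000144) to libraries that lay on both sides of those of hESC.

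KIF7, which organises the tip of the primary cilium and regulates Hedgehog signalling, was at 22.95, 21.3 and 21.8 CPM in hESC, 21.4, 18.6 and 16.6 in control NPC and 15.1, 14.3 and 13.4 under BafA1. It fell in BafA1 NPC (-0.41 ± 0.11, adjusted p = 0.0109) and was not called in control NPC against hESC (-0.22 ± 0.11, adjusted p = 0.0868), where it was called lower without control replicate 1 (-0.32, adjusted p = 0.0218), and with all libraries under RLE size factors (-0.27, 0.0444) and in DESeq2 (-0.27, 0.0402). KIF27 (1.33 ± 0.16, adjusted p = 1.61e-05), a close relative of KIF7, and KIF9 (1.16 ± 0.18, adjusted p = 0.000101), a kinesin of motile cilia, rose in control NPC and were not called in BafA1 NPC. KIF12 was at 2.60, 3.31 and 2.95 CPM in hESC, 0, 0 and 0.0352 in control NPC and 0.109, 0 and 0 under BafA1; 522 counts in hESC stood against 2 in control NPC, both in replicate 3, a ratio of 246.2 with an exact 95% counting interval of 67.81 to 2038.

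The calls of KIF19, KIF6 and KIF2A in BafA1 NPC were lost under some alternatives. KIF19, which limits the length of motile cilia, rose (1.26 ± 0.40, adjusted p = 0.0249) from 0.474 ± 0.291 to 1.15 ± 0.136 CPM (SD, n = 3), a call lost without control replicate 1 or 2 or BafA1 replicate 1 (0.90 to 1.23, adjusted p = 0.0579 to 0.0739), after a fall in control NPC against hESC (-1.36 ± 0.40, adjusted p = 0.00985). KIF6, a kinesin of motile cilia, fell (-0.71 ± 0.22, adjusted p = 0.0212), lost without control replicate 3 or BafA1 replicate 1 or 3 (-0.66 to -0.62, 0.0554 to 0.0633). KIF2A, which shortens microtubules in spindles and axons, fell (-0.26 ± 0.09, adjusted p = 0.0309), lost without control replicate 1 or 2 or BafA1 replicate 1 or 2 (-0.29 to -0.21, 0.0538 to 0.1). With all libraries of both groups the KIF2A call was also lost with GC and length trends removed (-0.18, 0.118), with limma on log2(FPKM + 1) (-0.25, 0.0676) and when only those 2 groups were fitted (-0.26, 0.0628). KIF25 was not called (1.35 ± 0.76, adjusted p = 0.177) and was called higher without control replicate 3 (2.80, 0.0165). In control NPC against hESC, KIF2A (0.21 ± 0.09, adjusted p = 0.0499) was called with a margin that 11 of 14 alternatives removed, and KIF6 (0.73 ± 0.22, adjusted p = 0.0106) was lost without hESC replicate 3 (0.60, 0.0513). KIF25 was called lower there without control replicate 3 (-2.14, 0.0374).

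Of the 5 chains of dynein-1, the general minus-end motor, 1 fell and none rose in BafA1 NPC (median -0.18), and 3 rose and none fell in control NPC against hESC (median 0.26). DYNC1H1, its heavy chain, was at 558, 544 and 533 CPM in hESC, 542, 474 and 465 in control NPC and 532, 358 and 414 under BafA1. BafA1 replicate 1 stood with the control libraries and the other BafA1 libraries below all of them, with no call (-0.18 ± 0.13, adjusted p = 0.288, 95% interval -0.47 to 0.10) unless BafA1 replicate 1 was left out (-0.34, adjusted p = 0.0201). DYNC1LI2, a light intermediate chain that links the motor to cargo adaptors, was at 114, 119 and 113 CPM in hESC, 152, 138 and 123 in control NPC and 108, 94.4 and 108 under BafA1 and was the chain that fell in BafA1 NPC (-0.41 ± 0.09, adjusted p = 0.0043). Its paralog DYNC1LI1 was at 66.8, 65.2 and 64.9 CPM in hESC, 69.4, 68.2 and 70.5 in control NPC and 52.9, 63.6 and 64.6 under BafA1, below the control libraries in all 3 BafA1 libraries but without a call (-0.20 ± 0.09, adjusted p = 0.0819). It was called lower under scaling by library size alone (-0.33, adjusted p = 0.00359) and with limma on log2(FPKM + 1).

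The intermediate chains of dynein-1, which hold the light chains and bind dynactin, rose from hESC to control NPC. DYNC1I2, the general form, was at 122, 117 and 125 CPM in hESC, 200.4, 199 and 216 in control NPC and 182, 208 and 206 under BafA1, with all hESC libraries below all NPC libraries (0.75 ± 0.08, adjusted p = 6.99e-06). DYNC1I1, the form enriched in neurons, was at 0.691, 0.884 and 1.06 CPM in hESC, 2.14, 2.43 and 2.94 in control NPC and 3.75, 2.70 and 2.17 under BafA1 and rose from its low level (1.51 ± 0.26, adjusted p = 0.000294). Neither was called in BafA1 NPC. DYNC1LI2 was also called higher in control NPC (0.26 ± 0.09, adjusted p = 0.0287), lost without any 1 hESC replicate or control replicate 1 or 2 (0.18 to 0.28, adjusted p = 0.0546 to 0.115). With all libraries this call was also lost under RLE size factors (0.21, adjusted p = 0.0669) and in DESeq2 (0.21, 0.0617). The same held with GC and length trends removed (0.11, adjusted p = 0.327).

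All 4 genes of dynein-2, the motor that returns intraflagellar transport trains to the base of the cilium, rose from hESC to control NPC (median 0.99), under each of the 14 alternatives. DYNC2H1, its heavy chain, was at 42.8, 44.3 and 42.8 CPM in hESC, 87, 93.03 and 121 in control NPC and 114, 88.9 and 99.6 under BafA1 (1.21 ± 0.13, adjusted p = 4.41e-06). DYNC2LI1, the light intermediate chain, was at 11.9, 13.6 and 13.3 CPM in hESC, 31.05, 37.3 and 46.02 in control NPC and 38.9, 43.5 and 41.96 under BafA1 (1.56 ± 0.13, adjusted p = 6.5e-07). In both, every NPC library lay above every hESC library and the NPC groups overlapped, with no call in BafA1 NPC. The intermediate chains moved in opposite directions under BafA1. DYNC2I1 was at 34.03, 28.9 and 33.8 CPM in hESC, 51.8, 54.8 and 57.97 in control NPC and 80.3, 72.6 and 78.6 under BafA1 and rose (0.49 ± 0.09, adjusted p = 0.00104). DYNC2I2 was at 54.4, 52.7 and 55.7 CPM in hESC, 96.4, 90.4 and 74.1 in control NPC and 62.8, 71.5 and 64.9 under BafA1 and fell (-0.39 ± 0.10, adjusted p = 0.00882). For both, the BafA1 and control libraries did not overlap, and both calls held under all 14 alternatives.

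The partners of dynein-2 rose in control NPC as well, with 17 of 20 intraflagellar transport genes higher, none lower and a median of 0.85. In BafA1 NPC 8 of them fell and 2 rose (median -0.11), among them WDR35 (-0.70 ± 0.09, adjusted p = 0.000135) and TTC30B (-1.13 ± 0.15, adjusted p = 0.000136). KIFAP3, which joins KIF3A and KIF3B to their cargo and was named after its value was seen, rose from 5.85 ± 0.479 CPM in hESC to 38.2 ± 4.67 in control NPC and 50.8 ± 3.06 under BafA1 (SD, n = 3; 2.71 ± 0.11, adjusted p = 1.78e-09 and 0.41 ± 0.10, adjusted p = 0.00787). Most markers of multiciliated cells rose in control NPC as well: 8 of 9 were higher and 1 lower. The lower one, DNAH5, had a mean of 33.8 CPM in hESC and 11.2 in control NPC. In BafA1 NPC 1 marker rose, 2 fell and 6 were not called. The 9 markers summed to 49.0 to 57.9 CPM in hESC, 116 to 155 in control NPC, then 121 to 134 under BafA1. Of these, TEKT1 had no count in hESC, and FOXJ1, the regulator of motile cilia that floor plate cells also express, was at 9.22, 8.95 and 7.15 CPM in hESC, 50.2, 59.1 and 61.1 in control NPC and 50.3, 51.1 and 40.9 under BafA1. The part of multiciliated cells in the result was not tested.

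Dynein light chains are small subunits shared with many other complexes. Of 6 genes 3 fell and 1 rose in BafA1 NPC (median -0.47). DYNLL1, of the LC8 family, was at 225, 236 and 223 CPM in hESC, 257, 258 and 234 in control NPC and 127, 179 and 152 under BafA1. All BafA1 libraries lay below all others (-0.71 ± 0.11, adjusted p = 0.000531), and hESC and control NPC overlapped. Its paralog DYNLL2 was at 130.2, 118 and 119.8 CPM in hESC, 154, 136 and 119 in control NPC and 94.6, 91.9 and 79.6 under BafA1 and fell alike (-0.62 ± 0.11, adjusted p = 0.000776). DYNLRB1, of the roadblock family, was at 70.98, 70.9 and 69.4 CPM in hESC, 70.6, 68.3 and 69.5 in control NPC and 77.4, 104 and 95.4 under BafA1; all BafA1 libraries lay above all others (0.41 ± 0.10, adjusted p = 0.00646). These 3 calls held under all 14 alternatives. DYNLL1 has several pseudogenes in the table, so its value is uncertain where reads could be split between copies.

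Both Tctex family members of the set rose in control NPC. DYNLT1 was at 40.4, 46.4 and 45.3 CPM in hESC, 52.3, 62.5 and 65.01 in control NPC and 53.2, 72.2 and 64.8 under BafA1 and rose in control NPC (0.45 ± 0.12, adjusted p = 0.00611) with no call in BafA1 NPC (0.08 ± 0.12, adjusted p = 0.625). DYNLT3 was at 5.58, 7.31 and 7.59 CPM in hESC, 10.99, 13.1 and 13.02 in control NPC and 9.32, 8.87 and 9.78 under BafA1, highest in control NPC (0.86 ± 0.14, adjusted p = 0.000218), and fell in BafA1 NPC (-0.41 ± 0.14, adjusted p = 0.0376), a call lost without control replicate 2 or 3 or any 1 BafA1 replicate (-0.44 to -0.37, adjusted p = 0.059 to 0.122). DYNLRB2, a light chain of ciliated tissue, had no count in hESC and was at 0.443, 0.406 and 0.581 CPM in control NPC and 0.346, 0.585 and 0.0932 in BafA1 NPC, at least 9.373-fold and 6.716-fold higher, each against a floor of 3 counts per library. Without BafA1 replicate 2 the BafA1 bound was 4.32-fold.

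Cofactors of the motors moved both ways in BafA1 NPC. Of 12 dynactin genes, which couple dynein to cargo, 2 rose and 4 fell (median 0.01), among them ACTR1B (0.66 ± 0.08, adjusted p = 0.000127) and DCTN5 (-0.69 ± 0.09, adjusted p = 0.00018). Of 17 dynein regulators and adaptors 3 rose and 8 fell (median -0.18). NIN, a centrosomal adaptor, was at 27.1, 28.04 and 28.3 CPM in hESC, 102, 93.1 and 96.4 in control NPC and 40.95, 39.1 and 38.4 under BafA1, with control NPC above both other groups (-1.30 ± 0.07, adjusted p = 2.97e-06), and the adaptor gene CCDC88B rose (1.42 ± 0.20, adjusted p = 0.000211). Of 13 kinesin light chains and adaptors 4 rose and 4 fell (median 0.19), with TRAK2 (-0.86 ± 0.10, adjusted p = 8.28e-05), which links mitochondria to motors, and MAPK8IP2 (-0.76 ± 0.13, adjusted p = 0.000875) both lower. Of 12 tubulin genes, the track itself, 3 rose and 3 fell (median -0.01). TUBA4A rose by 2.07 ± 0.26, adjusted p = 0.000118 from 0.640 ± 0.133 CPM, far under its 52.3 ± 4.26 CPM in hESC, and TUBB2B by 0.77 ± 0.11, adjusted p = 0.00023 (SD, n = 3). In control NPC against hESC the counts higher and lower were 7 and 1 for dynactin, 7 and 6 for regulators, 5 and 4 for kinesin light chains and adaptors, and 5 and 4 for tubulins.

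Set directly against hESC, BafA1 NPC had 22 motor genes higher, 16 lower and 18 not called (median -0.07, against 0.02 over all genes). Of all genes tested 35.5% were higher and 34.8% lower (70.4% in either direction). Groups did not overlap for 24 motor genes upward and 20 downward, against 37.2% and 37.4% of all genes (74.6% in either direction). This comparison shares its libraries with the others. By role, 3 mitotic kinesins were higher and 5 lower, 6 and 5 transport kinesins, and 3 and 3 ciliary or other kinesins. Among dynein genes, 2 and 1 dynein-1 chains, 4 and 0 dynein-2 chains and 4 and 2 light chains were higher and lower. The lower dynein-1 chain was DYNC1H1, a call lost under 7 of 14 alternatives. These included leaving out any 1 hESC replicate or BafA1 replicate 2 or 3 (adjusted p = 0.0734 to 0.165). The call of KIF16B (higher) was lost under 11 of 14 alternatives. Those of KIF5C (lower) and DYNC2I2 (higher) were lost under 4 each, of KIF23 (lower) under 3 and of DYNLT3 (higher) under 2. KIFC1 was not called but was called lower under 8. KIF18B (-1.04 ± 0.10, adjusted p = 2.37e-06) and KIF20B (-0.66 ± 0.08, adjusted p = 2.23e-05) were below hESC. KIF15 (0.12 ± 0.09, adjusted p = 0.23), KIF4A (-0.08 ± 0.09, adjusted p = 0.46), KIF24 (-0.11 ± 0.15, adjusted p = 0.518), KIF17 (0.33 ± 0.22, adjusted p = 0.192) and KIFC2 (-0.22 ± 0.14, adjusted p = 0.166), which were called between control NPC and each of the other groups, were among the genes not called between BafA1 NPC and hESC. Their 95% intervals were -0.07 to 0.31, -0.28 to 0.13, -0.43 to 0.21, -0.14 to 0.81 and -0.51 to 0.08.

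The separately deposited counts and FPKM values imply a mean transcript length for each gene, which moves when the mix of isoforms assigned to it moves. It was read for the 42 motor genes with more than 1 annotated transcript and at least 100 counts in every library. Those whose groups did not overlap and differed by at least 3% numbered 1 (2.4%) in BafA1 NPC against control NPC, 4 (9.5%) in control NPC against hESC and 2 (4.8%) in BafA1 NPC against hESC, where 9.35%, 8.86% and 12.9% of all genes with a value passed. KIF1B implied 10729, 10744 and 10941 bases in control NPC and 11397, 11407 and 11396 in BafA1 NPC. KIF13A implied 6532, 6436 and 6534 bases in hESC and 7504, 7291 and 7281 in control NPC. KIF1C was longer and KIF9 was longer in control NPC than in hESC, with means of 8179 and 8828 bases and of 1248 and 1715 bases. These values have no test.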

How the data were processed

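Per the labels' protocols, 9 libraries were made from TRIZOL-extracted total RNA with the TruSeq Stranded mRNA kit. The submitters' processing notes name Trimmomatic (a read trimmer) and GRCh38, and the sources used here name no aligner or counter. The deposited tables hold raw counts per gene and, in a separate table for each group, FPKM values made by the authors. Columns named Control were taken as untreated NPC, the only group left for them. FPKM tables served for levels between genes.

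Counts were filtered with filterByExpr (20685 genes kept), scaled by TMM and fitted over all 9 libraries with edgeR 4.0.16 in R 4.3.3 by the quasi-likelihood F test, with Benjamini-Hochberg adjustment over all tested genes and a threshold of 0.05. The SE of a log2 change was derived from the F statistic. Alternatives were other scalings, no filter, a replicate block, removal of GC and length trends, DESeq2 1.42.0, limma 3.58.1 on log2(FPKM + 1), only the 2 groups compared, and each library left out in turn. The scripts were tested on simulated counts. Intervals of count ratios and floors of 3 counts cover counting error only.

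Motor genes were chosen by symbol, and roles, partner lists and cell type markers by known function. Members and lists were chosen with earlier results of these data known. Libraries were given in full for the 3 genes with the smallest adjusted p of each role in BafA1 NPC against control NPC and in control NPC against hESC, and for a set list of 20 genes; KIF4A, KIF14 and FOXJ1 were added after their values were seen. From each partner list the 2 genes with the smallest adjusted p in BafA1 NPC were named. LIN28A, FOXA2, CDC20, PLK1 and DNAH5 were named after their values were seen.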

Additional observations from a re-analysis of the deposited data

How the results depend on the processing

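All 14 alternatives ran for each comparison. In BafA1 NPC against control NPC the motor genes that rose numbered 6, and 10 with GC and length trends removed, where those that fell numbered 17 in place of 20. Of the 17489 genes covered by this correction 4132 rose and 4048 fell. In the main fit 4309 and 4277 of 20685 genes did. With that correction KIF11 (-0.03) and KIF23 (-0.21) reversed their log2 change in control NPC against hESC; the cause was not tested. With 1 library left out, 4 to 8 motor genes rose and 15 to 17 fell in BafA1 NPC against control NPC, 25 to 28 rose and 11 to 14 fell in control NPC against hESC, and 19 to 22 rose and 13 to 20 fell in BafA1 NPC against hESC. Over all genes, 3241 to 4452 rose and 3278 to 4295 fell in the first comparison. In the second 6224 to 6698 rose and 5920 to 6441 fell, and in the third 6816 to 7231 and 6694 to 7318. Scaling by library size alone moved the median log2 change of all genes from 0 to -0.12 in BafA1 NPC against control NPC, with 5 motor genes higher and 23 lower, and from 0.03 to 0.14 in control NPC against hESC, with 30 and 11. Of all genes 3104 were then higher and 5681 lower in the first comparison, and 7640 and 5681 in the second. With replicate number as a block, motor genes higher and lower numbered 6 and 20, 28 and 13, and 22 and 17 in the 3 comparisons. Over all genes these counts were 4112 and 4130, 6694 and 6422, and 7197 and 7098. Same-numbered libraries deviated together by correlations of only -0.061 to 0.149, so the numbers were not taken as pairs.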
